A study of Mus musculus with 4 samples.

Results

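The 10 genes described here encode the core machinery that fuses and divides mitochondria, and they were taken from the deposited gene table by an exact match of the gene name. All 10 of the 10 listed genes were found among 28723 genes, each on a single entry, and all 10 were among the 12027 genes tested. The fusion genes were Mfn1, Mfn2 and Opa1, the fission genes were Dnm1l, Fis1, Mff, Mief1 and Mief2, and the genes for proteases that cut the Opa1 protein were Oma1 and Yme1l1. Whole hearts were taken from C57BL/6J mice that had no treatment and were kept free of specific pathogens, with the genotype WT in the labels. There were 2 libraries at 8 weeks, called young replicates 1 and 2, and 2 at 12 months, called aged replicates 1 and 2. The titles of the aged libraries begin with FLOX and those of the young libraries with C, and what FLOX stands for is not given in the sources used here. Age is entered in the labels under a field named batch, so age and any batch that follows it cannot be told apart. Neither the sex of the mice nor whether each library is a separate animal is stated, so the p-values cover only the spread among these 4 libraries, which may be technical.

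Mitochondria join and split continually. Mitofusins tether and merge the outer membranes of neighbouring mitochondria, and Opa1 then merges the inner membranes and keeps the cristae narrow. Division needs Drp1, a cytosolic dynamin encoded by Dnm1l, which is brought to the outer membrane by receptors and constricts it. Long forms of Opa1 are cut to short forms by Yme1l1, which acts constitutively, and by Oma1, which is activated when the membrane potential falls or under other stress. In heart muscle, where mitochondria are packed between the myofibrils, loss of mitofusins, Opa1 or Drp1 in mouse cardiomyocytes is known to cause heart failure. Transcript levels, as measured here, do not show protein amount, cutting of Opa1 or the shape of mitochondria.

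The libraries held 52866260 and 63828074 counts at 8 weeks and 55411355 and 51328364 at 12 months, and single libraries had from 781 to 44786 counts on the 10 genes. Of all tested genes 20.1% were called higher and 17.5% lower at 12 months, 2416 and 2104 of 12027, and the median log2 fold change over all tested genes was 0.01. On FPKM rescaled to a common sum the split was 3797 higher and 1095 lower, with the median moved to 0.16. Cardiomyocyte markers were abundant at both ages, with Myh6, the main myosin heavy chain of adult mouse heart, between 3065 and 3524 FPKM in every library. Myh6 was not called, but 3 of the 10 cardiomyocyte markers were called higher at 12 months and 5 lower. Markers of other cells also moved with age. Summed FPKM of 6 atrial muscle markers was 281 and 287 at 8 weeks and 4400 and 1674 at 12 months. That of 8 endothelial markers was 303 and 300.0 against 147 and 141. The part of these shifts in the results below was not tested, and because whole hearts were sequenced, fewer cells of a type and less RNA per cell cannot be told apart.

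At 12 months 6 of the 10 genes were called higher, 1 was called lower and 3 were not called, by edgeR's quasi-likelihood test with a p below 0.05 after Benjamini-Hochberg adjustment over the 12027 genes. That is 60% called higher against 20.1% of all tested genes, and 10% called lower against 17.5%. The 10 genes were chosen with earlier results of these data known, so this comparison is a description and not a test. In 8 of the 10 genes both libraries of an age lay above both libraries of the other age in CPM (counts scaled to library size), as they did in 73.3% of all tested genes. Mfn2 and Opa1 approximately doubled, Dnm1l, Yme1l1, Mfn1 and Mff rose by 1.24-fold to 1.36-fold, and Fis1 fell. Oma1, Mief1 and Mief2 did not pass the test. Leaving out young replicate 1 reduced the counts to 3 higher and 0 lower, and leaving out young replicate 2 to 2 higher and 1 lower. The calls over all tested genes dropped at the same time, from 2416 to 1187 and 1259 higher and from 2104 to 890 and 1048 lower.

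**Figure D1:**
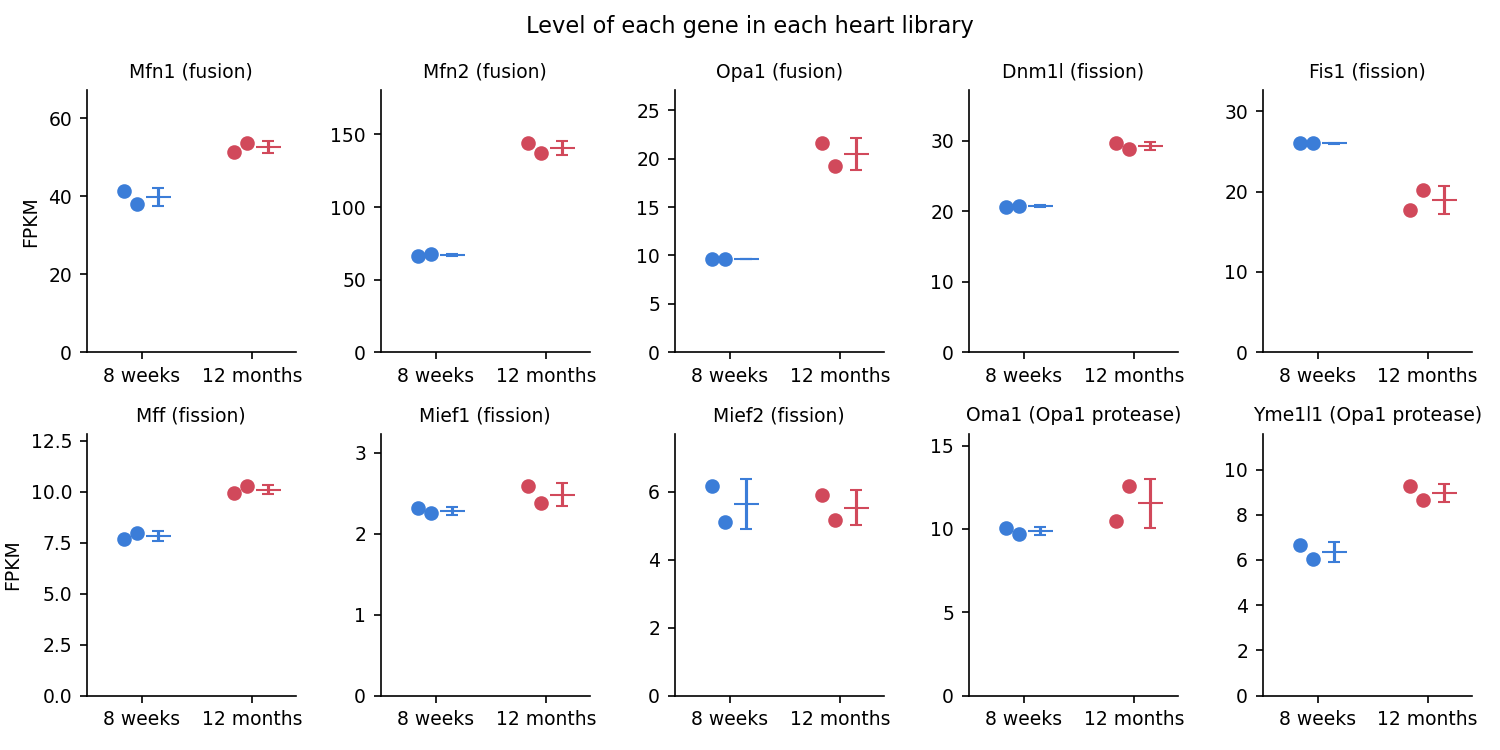
FPKM of each of the 10 genes (vertical axis of each panel, from 0) in the libraries at 8 weeks (blue) and at 12 months (red). Points are single libraries, and the bars beside them are the mean ± SD of 2 libraries. Mfn2 lies at 66.3 and 67.6 FPKM at 8 weeks and at 144 and 137 at 12 months, and the ages overlap for Mief2.

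Ordered by mean FPKM at 8 weeks, the genes ran Mfn2 (67.0), Mfn1 (39.7), Fis1 (26.0), Dnm1l (20.7), Oma1 (9.88), Opa1 (9.64), Mff (7.82), Yme1l1 (6.36), Mief2 (5.64) and Mief1 (2.29). The neighbours Yme1l1 and Mief2 overlapped between libraries, and Oma1 and Opa1 differed by about the spread of the Oma1 replicates. At 12 months the order was Mfn2 (141), Mfn1 (52.5), Dnm1l (29.2), Opa1 (20.5), Fis1 (19.0), Oma1 (11.5), Mff (10.1), Yme1l1 (8.96), Mief2 (5.54) and Mief1 (2.49). Opa1 had passed Oma1 and Fis1, Dnm1l had passed Fis1, and the neighbours Opa1 and Fis1 overlapped between libraries. Mfn2 ranked 272 among the 12027 tested genes by mean FPKM over the 4 libraries. FPKM in the deposited table divides by the merged length of all exons of a gene, which places genes with many alternative exons lower. Mff, whose merged exons span 9757 nt against 3918 nt for its longest listed transcript, moved from rank 7 by FPKM to rank 5 by CPM per kilobase of the longest transcript. Mfn2 and Mfn1 held ranks 1 and 2 on both scales.

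Mfn2 encodes mitofusin 2, which fuses outer membranes and also sits at contacts between mitochondria and the endoplasmic reticulum. The gene (ENSMUSG00000029020) lies at chr4:147873599-147904704 on the minus strand of GRCm38. Its level was 66.3 and 67.6 FPKM in young replicates 1 and 2 and 144 and 137 FPKM in aged replicates 1 and 2. Both aged libraries lay far above both young ones. The mean rose from 67.0 ± 0.937 to 141 ± 5.10 FPKM (SD, n = 2 each), and the edgeR log2 fold change was 1.01 ± 0.08 (SE; adjusted p = 0.0012), a 2.02-fold rise. This change exceeded that of 96.0% of tested genes, and the call held in 17 of 17 alternative settings, with log2 fold changes from 0.94 to 1.20.

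Opa1 encodes the dynamin-related GTPase of the inner membrane, whose loss of function in people causes dominant optic atrophy. The gene (ENSMUSG00000038084) lies at chr16:29579334-29654884 on the plus strand and has 8 listed transcripts, which the gene-level counts do not separate. Young replicates 1 and 2 held 9.62 and 9.66 FPKM and aged replicates 1 and 2 held 21.6 and 19.3 FPKM. The young libraries were nearly equal and both aged libraries were higher. The mean rose from 9.64 ± 0.0277 to 20.5 ± 1.67 FPKM (SD, n = 2 each), a log2 fold change of 1.03 ± 0.09 (SE; edgeR adjusted p = 0.0013) or 2.04-fold. As for Mfn2, the call held in 17 of 17 alternatives, here with log2 fold changes from 0.91 to 1.15.

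Mfn1 encodes the second mitofusin, which is the more efficient tether of outer membranes in mouse cells. The gene (ENSMUSG00000027668, chr3:32529465-32579239, plus strand) had 41.4 and 38.1 FPKM in young replicates 1 and 2 and 51.4 and 53.7 FPKM in aged replicates 1 and 2. The ages did not overlap, but the gap was smaller than for Mfn2. The mean rose from 39.7 ± 2.34 to 52.5 ± 1.60 FPKM (SD, n = 2 each), a log2 fold change of 0.34 ± 0.08 (SE; edgeR adjusted p = 0.020) or 1.27-fold. Mfn1 did not pass without young replicate 1 (adjusted p = 0.0842), without young replicate 2 (0.179) or after removal of the GC trend (0.0778), and its log2 fold change was 0.54 on rescaled FPKM.

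**Figure D2:**
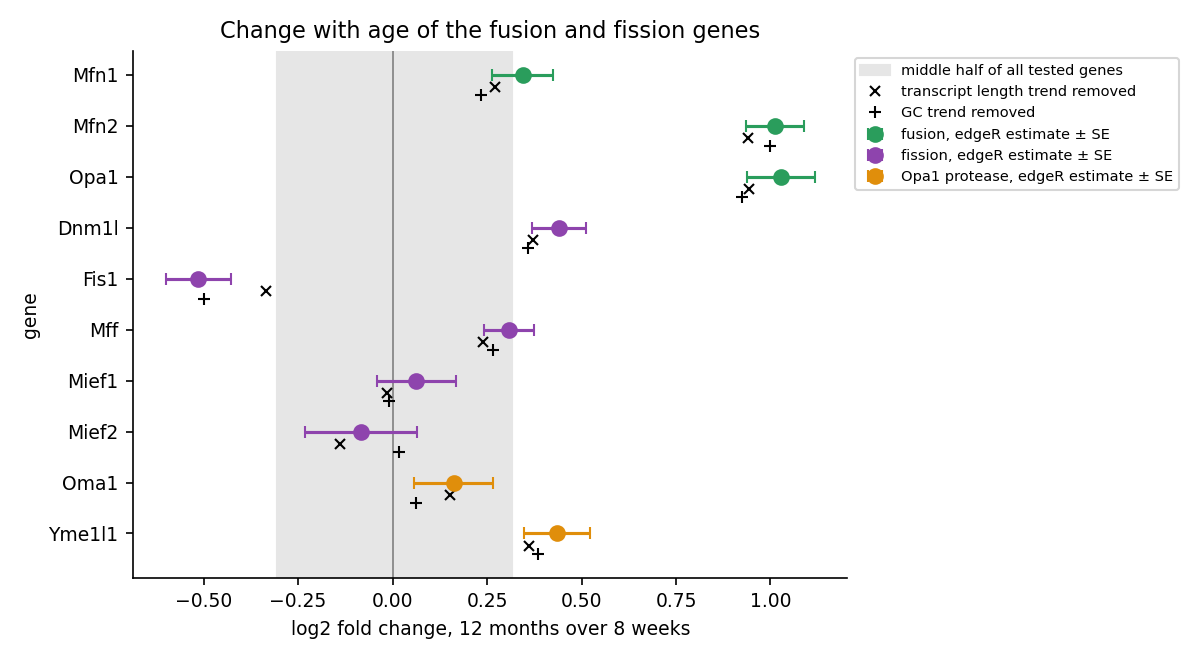
Log2 fold change of each gene, 12 months over 8 weeks (horizontal axis), by gene, coloured by role, with bars of ± SE from edgeR. Crosses and plus signs are the estimates after removal of the trend on transcript length or on GC content, and the grey band spans the quartiles of all tested genes, -0.31 to 0.32. Mfn2 and Opa1 lie near 1 under each estimate, and Fis1 lies below the band.

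Promoter sequences are shown for Mfn2 and Opa1, the genes that rose most, and Fis1, the gene that fell. Each is the stretch of 250 bases before the most upstream listed start of transcription, from RefSeq annotation on GRCm38.p6, written 5′ to 3′ on the strand of the gene. Capitals mark matches, on either strand, to the NRF-1 core GCGCANGCG or the GABP core CCGGAAG, motifs of factors known to act on nuclear genes for mitochondrial proteins.
Mfn2, chr4:147904910-147905159, minus strand: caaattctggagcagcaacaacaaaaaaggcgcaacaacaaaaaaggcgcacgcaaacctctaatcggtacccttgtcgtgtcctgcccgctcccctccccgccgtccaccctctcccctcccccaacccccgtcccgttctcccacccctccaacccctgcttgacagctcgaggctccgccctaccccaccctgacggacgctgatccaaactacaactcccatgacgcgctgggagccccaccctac
Opa1, chr16:29579084-29579333, plus strand: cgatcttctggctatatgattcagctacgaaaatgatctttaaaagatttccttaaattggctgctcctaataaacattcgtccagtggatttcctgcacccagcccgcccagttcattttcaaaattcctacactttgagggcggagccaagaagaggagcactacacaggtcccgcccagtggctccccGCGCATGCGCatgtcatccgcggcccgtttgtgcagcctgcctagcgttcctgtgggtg
Fis1, chr5:136953025-136953274, plus strand: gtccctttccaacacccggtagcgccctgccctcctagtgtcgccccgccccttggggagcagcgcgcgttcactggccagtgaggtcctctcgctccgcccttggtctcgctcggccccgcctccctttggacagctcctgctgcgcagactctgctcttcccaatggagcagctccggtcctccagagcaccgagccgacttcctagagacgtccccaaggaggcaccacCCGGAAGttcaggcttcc
All 10 genes had a promoter in the RefSeq table, and the search covered 300 bases, from 250 before to 50 after each start, in 27025 promoters. The NRF-1 core was found in Opa1 and Oma1 and in 6.49% of all promoters, or 14.29% of those of tested genes. In Opa1 the match lay 59 to 51 bases before the start, and a match on the other strand, 58 to 50 bases before it, overlapped it. The GABP core was found in Fis1, Mfn1, Mief1 and Yme1l1, and in 9.14% of all promoters or 18.53% of those of tested genes. In Fis1 it lay 18 to 12 bases before the start. Neither the estrogen-related receptor half-site AAGGTCA nor the cyclic AMP response element TGACGTCA was found in any of the 10 windows. The half-site was in 4.65% of all promoters and 3.02% of those of tested genes, and the response element in 1.85% and 3.27%. With shares this low, the lack of a match in 10 windows is unremarkable. Sites further upstream were not searched. Neither were windows at the other listed starts of Mfn2, with 3 listed, and of Dnm1l, Fis1 and Mff, with 2 listed each. The starts used for Mfn2 and Dnm1l lie upstream of the gene spans in the deposited table, and their windows stop short of those spans. The Sp1 core GGGCGG was found in all 10, and in 65.86% of the promoters of tested genes; it is not capitalised above. These matches describe letters in a window and show no binding.

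Dnm1l, which encodes Drp1, the dynamin that constricts mitochondria, rose less than Mfn2 and Opa1. The gene (ENSMUSG00000022789, chr16:16312230-16358959, minus strand) had 20.6 and 20.8 FPKM in young replicates 1 and 2 and 29.7 and 28.8 FPKM in aged replicates 1 and 2. The replicates of each age lay close together and the ages did not overlap. The mean rose from 20.7 ± 0.137 to 29.2 ± 0.626 FPKM (SD, n = 2 each), a log2 fold change of 0.44 ± 0.07 (SE; edgeR adjusted p = 0.0060) or 1.36-fold. Without young replicate 1 or 2 the adjusted p was 0.0581 and 0.0546.

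Mff encodes the mitochondrial fission factor, a tail-anchored outer membrane receptor for Drp1. The gene (ENSMUSG00000026150, chr1:82724890-82752390, plus strand) had 7.66 and 7.99 FPKM in young replicates 1 and 2 and 9.93 and 10.3 FPKM in aged replicates 1 and 2. All aged values lay above the young ones. The mean rose from 7.82 ± 0.238 to 10.1 ± 0.228 FPKM (SD, n = 2 each), a log2 fold change of 0.31 ± 0.07 (SE; edgeR adjusted p = 0.0145) or 1.24-fold. Without young replicate 1 the adjusted p was 0.105, and without young replicate 2 it was 0.0724. The table lists 15 transcripts of Mff, and an entry on the same strand within the gene, Gm28941, had at most 34 counts in a library.

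Fis1 encodes a small tail-anchored outer membrane protein that is the main fission receptor in yeast; in mammals it has been tied to stress-induced fission and mitophagy. It was the only 1 of the 10 genes called lower. The gene (ENSMUSG00000019054, chr5:136953275-136966232, plus strand) had 26.0 and 26.1 FPKM in young replicates 1 and 2 and 17.8 and 20.2 FPKM in aged replicates 1 and 2. Both aged libraries lay below both young ones, and they differed from each other more than the young libraries did. The mean fell from 26.0 ± 0.0538 to 19.0 ± 1.75 FPKM (SD, n = 2 each), a log2 fold change of -0.51 ± 0.09 (SE; edgeR adjusted p = 0.0067), or to 0.700 of the young level. Without young replicate 1 the log2 fold change was also -0.51, with an adjusted p of 0.0505. Over 17 alternatives it ran from -0.59 to -0.30, the smallest change being on rescaled FPKM (limma adjusted p = 0.0425).

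Mief1 and Mief2 encode MiD51 and MiD49, outer membrane adaptors that recruit Drp1, and they were the least abundant of the 10 genes. Mief1 (ENSMUSG00000022412, chr15:80234018-80253371, plus strand) had 2.32 and 2.25 FPKM at 8 weeks and 2.59 and 2.38 at 12 months. Its log2 fold change was 0.06 ± 0.10 (SE; edgeR adjusted p = 0.662), and the ages lay apart in FPKM but overlapped in CPM. Mief2 (ENSMUSG00000018599, chr11:60728398-60732951, plus strand) had 6.16 and 5.11 FPKM at 8 weeks and 5.91 and 5.17 at 12 months. The aged values lay within the young range, and the log2 fold change was -0.08 ± 0.15 (SE; edgeR adjusted p = 0.687). For both genes the sign of the estimate depended on the setting, from -0.03 to 0.19 for Mief1 and from -0.22 to 0.10 for Mief2.

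Yme1l1 encodes the i-AAA protease, an ATP-driven enzyme of the inner membrane that faces the intermembrane space. The gene (ENSMUSG00000026775, chr2:23156369-23199260, plus strand) had 6.67 and 6.06 FPKM in young replicates 1 and 2 and 9.26 and 8.67 FPKM in aged replicates 1 and 2. The ages did not overlap. The mean rose from 6.36 ± 0.437 to 8.96 ± 0.417 FPKM (SD, n = 2 each), a log2 fold change of 0.44 ± 0.09 (SE; edgeR adjusted p = 0.0116) or 1.35-fold, which was lost without young replicate 2 (adjusted p = 0.0820).

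Oma1 encodes the stress-activated metalloprotease of the inner membrane. The gene (ENSMUSG00000035069, chr4:103313812-103366443, plus strand) had 10.1 and 9.71 FPKM in young replicates 1 and 2 and 10.5 and 12.6 FPKM in aged replicates 1 and 2. Both aged libraries lay above the young ones, but aged replicate 1 only slightly, and the aged libraries differed by 1.20-fold. The log2 fold change was 0.16 ± 0.10 (SE; edgeR adjusted p = 0.267), and no alternative called it, the lowest adjusted p being 0.0511. It was 0.25 without aged replicate 1 and 0.05 without aged replicate 2.

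By role, 3 of 3 fusion genes were called higher, with a median log2 fold change of 1.01, though the call of Mfn1 was not kept in every setting. Counts by role are to be read against 20.1% called higher and 17.5% called lower over all tested genes. Of the 5 fission genes 2 were called higher and 1 lower, with a median of 0.06. The 1 called lower is 20% of them, near the share over all tested genes. Of the 2 Opa1 protease genes 1 was called higher. Summed FPKM of the fusion genes was 117 and 115 at 8 weeks and 217 and 210 at 12 months. That of the fission genes was 62.7 and 62.2 at 8 weeks and 65.9 and 66.8 at 12 months, where the fall of Fis1 offset part of the rises of Dnm1l and Mff. The ratio of the fusion sum to the fission sum was 1.87 and 1.85 at 8 weeks and 3.30 and 3.14 at 12 months, a 1.73 ± 0.0608-fold difference. The ± is combined from the SDs of the 2 libraries of each age and covers only their spread. The ratio is a description with no test. Its size depended on the genes summed: the fold was 1.39 without Mfn2, 1.41 without Fis1 and 2.07 without Dnm1l. Without Mfn2 and Dnm1l, the most abundant of each side over the 4 libraries, it was 1.67, and without Mfn2 and Fis1, the most abundant at 8 weeks, it was 1.14.

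By membrane, 3 of the 6 outer membrane genes were called higher and 1 lower, with a median log2 fold change of 0.19. Of the 3 inner membrane genes 2 were called higher, with a median of 0.44. Over all tested genes 20.1% were called higher and 17.5% lower, and the 1 outer membrane gene called lower is near that share. Drp1 is mainly cytosolic, and Dnm1l was counted on neither side. The inner membrane genes summed to 26.3 and 25.4 FPKM at 8 weeks and 41.4 and 40.5 at 12 months, and the outer membrane genes to 149.8 and 147 FPKM at 8 weeks and 232 and 229 at 12 months. The ratio of inner to outer was 0.176 and 0.173 at 8 weeks and 0.179 and 0.177 at 12 months, a 1.02 ± 0.0139-fold difference (± combined from the SDs of both ages). This small difference depended on which genes were summed. The fold was 0.814 without Opa1, 1.19 without Oma1 and 1.44 without Mfn2, and it was 1.28 with geometric means in place of sums. Without Opa1 and Mfn2, the most abundant of each side over the 4 libraries, it was 1.15, and without Oma1 and Mfn2, the most abundant at 8 weeks, it was 1.67.

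**Figure D3:**
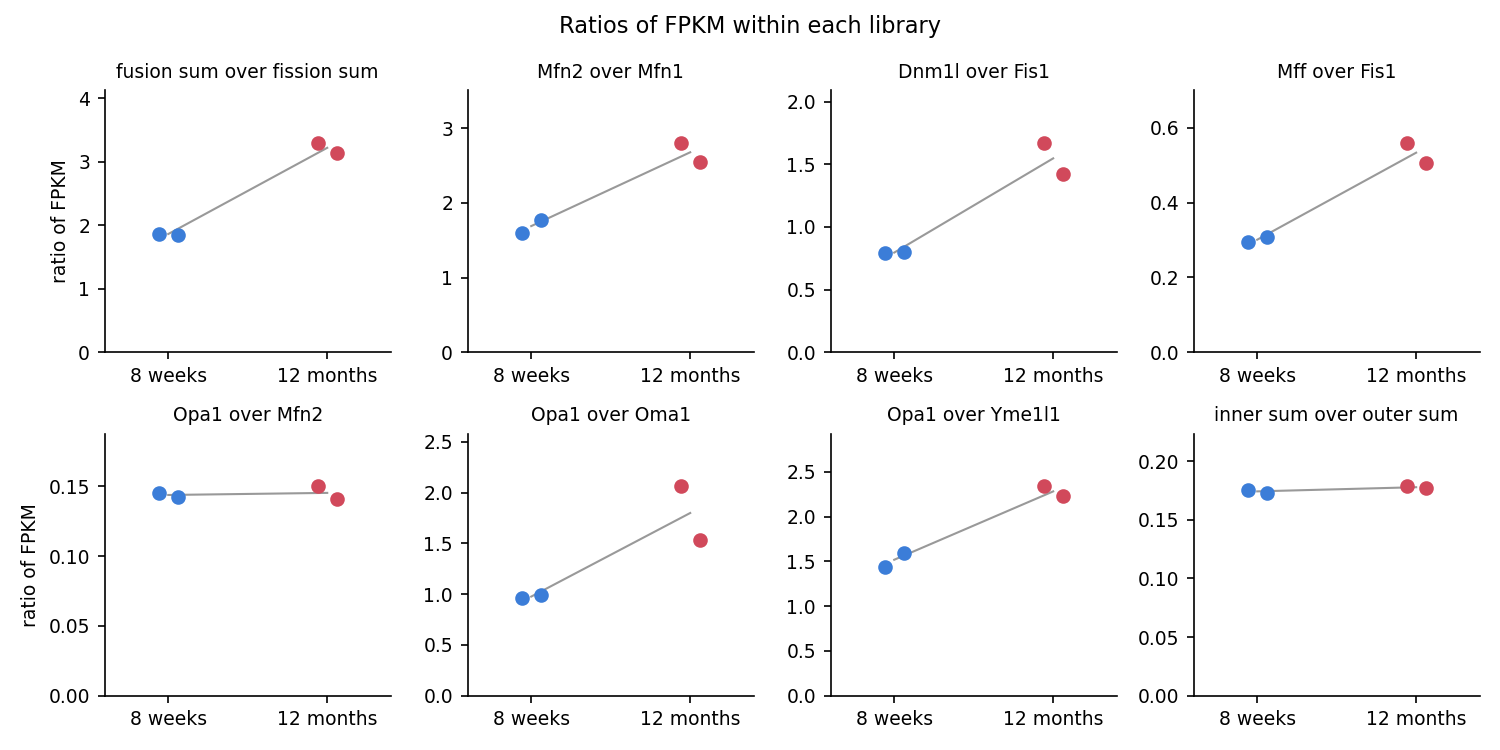
Ratio of FPKM values within each library (vertical axis of each panel, from 0) at 8 weeks (blue) and 12 months (red). Points are single libraries and the grey line joins the means of 2 libraries. The fusion to fission ratio rises from 1.87 and 1.85 to 3.30 and 3.14, and Opa1 over Mfn2 overlaps between ages.

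Ratios between single genes showed which pairs moved apart. Mfn2 over Mfn1 was 1.60 and 1.78 at 8 weeks and 2.81 and 2.55 at 12 months, so the mitofusins no longer stood in the same proportion. Opa1 over Mfn2 was 0.145 and 0.143 at 8 weeks and 0.150 and 0.141 at 12 months, and the ages overlapped. Among the fission genes, Dnm1l over Fis1 was 0.792 and 0.797 at 8 weeks and 1.67 and 1.42 at 12 months. The Drp1 receptors also parted: Mff over Fis1 went from 0.295 and 0.307 to 0.560 and 0.507. Opa1 had a larger log2 fold change than the gene of either protease. Opa1 over Yme1l1 went from 1.44 and 1.60 to 2.34 and 2.23, and Opa1 over Oma1 from 0.957 and 0.994 to 2.06 and 1.54. The last ratio differed between the aged libraries, where Oma1 was higher and Opa1 lower in replicate 2. Mief1 over Mief2 overlapped between the ages, at 0.377 and 0.441 against 0.438 and 0.461. These ratios were not tested.

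Change with age differed with transcript length across all tested genes, mainly in the shortest class. Over 5 length classes of about equal size, the median log2 fold change was -0.22 for the shortest transcripts, up to 1557 nt. In the next classes it was -0.003, 0.06 and 0.08, and it was 0.08 for the longest. Fis1, with a longest transcript of 948 nt, was the only 1 of the 10 genes in the shortest class. With the length trend removed its log2 fold change was -0.33 (edgeR adjusted p = 0.0196), and with the trend on merged exon length removed it was -0.45. Mfn2 (4341 nt) and Opa1 (6230 nt) kept log2 fold changes of 0.94 each with the length trend removed, and Mfn1 kept 0.27 (adjusted p = 0.0482). Over 5 classes by GC content the median ran from 0.09 in the lowest to -0.15 in the highest. Opa1, Dnm1l, Mff and Yme1l1 were in the lowest class, at most 44.2% GC, and Mfn2 was in class 4. With the GC trend removed Opa1 had a log2 fold change of 0.93, Mfn2 of 1.00 and Fis1 of -0.50.

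**Figure D4:**
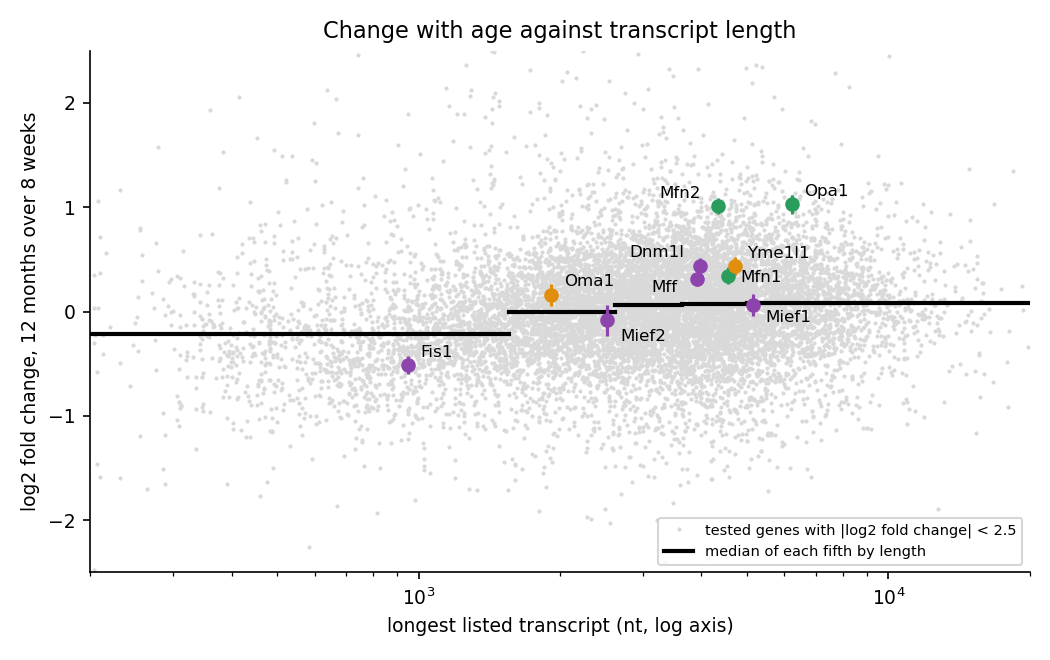
Log2 fold change, 12 months over 8 weeks (vertical axis), against the length of the longest listed transcript in nt (log axis) for tested genes in grey and the 10 genes in colour by role (fusion green, fission purple, Opa1 proteases orange), with bars of ± SE. Black lines are medians of 5 length classes, from -0.22 for the shortest to 0.08 for the longest, and Fis1 lies below the line of its class while Mfn2 and Opa1 lie above theirs.

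The genes closest in pattern to Mfn2, Opa1 and Fis1 were found by the Euclidean distance of log2(FPKM + 1), centred on its mean, over the 4 libraries, among 10782 named genes. Pptc7, a phosphatase of mitochondria, was nearest to Mfn2 at a distance of 0.0068, with 13.8 and 14.2 FPKM at 8 weeks and 31.0 and 29.5 at 12 months, followed by Synpo2 and Wdtc1. Rcan2, a regulator of calcineurin, was nearest to Opa1 at 0.029, followed by Cand2 and Ptpn11. Opa1 and Mfn2 lay 0.079 apart, each at rank 19 from the other. Prpf39, Capn15 and Mrpl11 were nearest to Fis1. Within a distance of 0.1 lay 32 genes for Mfn2, 39 for Opa1 and 178 for Fis1, so each pattern was shared by many genes over these 4 libraries.

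The genes that act with this machinery were counted in 12 lists. The counts are to be read against 20.1% called higher, 17.5% called lower and a median of 0.01 over all tested genes. On rescaled FPKM the background was 3797 higher and 1095 lower of 12027 tested genes, with a median of 0.16. Without a young library the background dropped as well, as given above. The lists were chosen with earlier results of these data known, so the counts are descriptions and not tests. Of 6 tested genes in the list of other factors tied to fusion, not all of which need promote it, 2 rose. Slc25a46, an outer membrane protein that binds the mitofusins and Opa1, had 8.94 and 9.24 FPKM at 8 weeks and 13.9 and 14.9 at 12 months, a log2 fold change of 0.60 ± 0.07 (SE; edgeR adjusted p = 0.0022). Miga1, a mitoguardin of the outer membrane, went from 1.02 and 1.07 to 1.95 and 1.94 FPKM, a log2 fold change of 0.83 ± 0.10 (SE; edgeR adjusted p = 0.0028). Both kept their calls without any single library. Of 7 tested other fission factors 3 rose and 1 fell, with a median of -0.10; on rescaled FPKM these were 3 and 0, with a median of 0.06. Mtfr1, a mitochondrial fission regulator, rose by 0.62 ± 0.10 (log2, SE; edgeR adjusted p = 0.0054) from 5.71 and 6.12 to 9.87 and 8.99 FPKM, also without any single library. Inf2, a formin that builds actin at fission sites, was lower at -0.52 ± 0.12 (log2, SE), a call lost without young replicate 2 (edgeR adjusted p = 0.0861) and with the GC trend removed (0.074). Without young replicate 2 the list had 1 gene higher and 0 lower.

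Enzymes and scaffolds that modify Drp1 are led by Akap1, the outer membrane anchor for protein kinase A, whose phosphorylation of Drp1 restrains fission. Akap1 had 15.8 and 16.3 FPKM at 8 weeks and 29.4 and 31.4 at 12 months, a log2 fold change of 0.86 ± 0.07 (SE; edgeR adjusted p = 0.0012), and kept its call without any single library. Of the 10 genes in this list 5 were called higher and 0 lower, with a median of 0.30. Ppp3cb and Ppp3r1, subunits of calcineurin, which removes that phosphate, were called at 0.42 and 0.30, and the phosphatase Pgam5 at 0.37. The count was 2 without young replicate 1, 1 without young replicate 2 and 1 without aged replicate 1, so Akap1 alone of the 4 genes named here held in each of those. It was 3 with the GC trend removed, and 8 on rescaled FPKM, where the median was 0.46.

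The MICOS complex shapes cristae junctions together with Opa1, and its genes moved in both directions. Of 12 genes 2 were called higher and 4 lower, with a median of -0.11; on rescaled FPKM these were 4 and 2, with a median of 0.09. Immt, the core subunit mitofilin, had 24.5 and 22.4 FPKM at 8 weeks and 36.3 and 38.8 at 12 months, a log2 fold change of 0.62 ± 0.08 (SE; edgeR adjusted p = 0.0035). Micos10, a small subunit that bends membranes, went from 41.7 and 41.1 to 23.4 and 24.2 FPKM, a log2 fold change of -0.85 ± 0.07 (SE; edgeR adjusted p = 0.0012). Micos13 went from 24.2 and 22.9 to 14.5 and 16.3 FPKM, a log2 fold change of -0.67 ± 0.09 (SE; edgeR adjusted p = 0.0038). Its longest transcript, 788 nt, put it in the shortest length class, where the median was -0.22. Over the settings its log2 fold change ran from -0.74 to -0.45. These 3 calls were kept without any single library; without young replicate 1 or 2 the list had 1 gene higher and 2 lower.

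Of 14 tested genes for other inner membrane and matrix proteolysis 2 were called higher and 3 lower, with a median of -0.17; on rescaled FPKM these were 5 and 0, with a median of 0.03. Afg3l2, a subunit of the m-AAA protease, rose from 9.09 and 9.52 to 13.4 and 13.5 FPKM, a log2 fold change of 0.47 ± 0.07 (SE; edgeR adjusted p = 0.0044). Clpx, the unfoldase of the matrix ClpXP protease, rose by 0.53 ± 0.08 (log2, SE; edgeR adjusted p = 0.0053), while Clpp, its proteolytic partner, was lower at -0.42 ± 0.08. The calls of Clpp, Phb and Htra2 were lost without young replicate 1 and without young replicate 2, with adjusted p of 0.0683 and 0.0575 for Clpp, and that of Clpp also with the length trend removed (0.0655), while Afg3l2 and Clpx were kept.

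Active Oma1 also cuts Dele1, which signals through the kinase Hri, encoded by Eif2ak1, to the transcription factor Atf4. Of 15 tested genes of this pathway and its targets 2 were called higher and 0 lower, with a median of 0.18. Dele1 had a log2 fold change of 0.18 ± 0.08 (SE; edgeR adjusted p = 0.138), and Atf4 lay between 26.0 and 26.3 FPKM in every library. Aldh1l2, a mitochondrial enzyme of folate metabolism, rose by 1.35 ± 0.18 (log2, SE; edgeR adjusted p = 0.0034) from 0.656 and 0.911 to 2.11 and 2.07 FPKM. The young mean of Aldh1l2 was 0.783 FPKM, below the filter of a mean FPKM of at least 1. The gene passed that filter only through the aged libraries, which favoured a call of higher. Eif2ak1 rose by 0.47 ± 0.08 (log2, SE; edgeR adjusted p = 0.0084), a call lost without young replicate 1 (adjusted p = 0.0691), when the list had 1 gene higher and a median of -0.03. Without aged replicate 1 the list had 2 genes lower and without aged replicate 2 it had 1. On rescaled FPKM 5 were higher, with a median of 0.35, and with the GC trend removed 3 were higher and 2 lower.

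Mitophagy removes mitochondria that fission has separated, and 11 of its 18 tested genes were called higher and 0 lower, with a median of 0.36. Bcl2l13, an outer membrane mitophagy receptor, had 4.52 and 4.80 FPKM at 8 weeks and 9.88 and 10.1 at 12 months, a log2 fold change of 1.05 ± 0.07 (SE; edgeR adjusted p = 0.0012). Nipsnap2, which marks depolarised mitochondria, rose by 0.90 ± 0.07 (log2, SE; edgeR adjusted p = 0.0012) from 84.8 and 84.3 to 163 and 165 FPKM. Usp15, a deubiquitinase that opposes parkin, rose by 0.51 ± 0.07 (log2, SE). These 3 genes kept their calls without any single library, and the list had 3 genes called without young replicate 1 and 3 without young replicate 2. Pink1, the kinase that starts parkin-dependent mitophagy and marks Mfn2 for it, had 104.5 and 106 FPKM at 8 weeks and 141.5 and 154.5 at 12 months, a log2 fold change of 0.43 ± 0.08 (SE; edgeR adjusted p = 0.0079). Leaving out young replicate 1 gave it an adjusted p of 0.0867, and leaving out young replicate 2 one of 0.0793.

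Of 9 tested genes for transport of mitochondria along the cytoskeleton 5 were called higher and 1 lower, with a median of 0.27. Kif5b, a kinesin heavy chain, rose by 0.68 ± 0.10 (log2, SE; edgeR adjusted p = 0.0046), and Myo19, a myosin of the outer membrane, fell by 0.86 on the log2 scale (SE 0.11; edgeR adjusted p = 0.0035). Both kept their calls without any single library, and without young replicate 1 or 2 they were the 1 gene higher and the 1 lower. Of 11 tested cardiolipin genes 3 were called higher and 0 lower, with a median of 0.11. Pnpla8, a mitochondrial phospholipase, rose by 0.93 ± 0.07 (log2, SE; edgeR adjusted p = 0.0012) and was the 1 gene still called without young replicate 1 or 2. On rescaled FPKM 5 cardiolipin genes were higher, and with the length or GC trend removed 2 were lower. Of 10 genes of contacts with the endoplasmic reticulum 3 were called higher and 2 lower, with a median of 0.15. Vdac1, the main outer membrane channel, rose by 0.77 ± 0.07 (log2, SE; edgeR adjusted p = 0.0016) and kept its call, while the list had 2 genes higher and 0 lower without young replicate 1, 1 and 0 without young replicate 2, and 1 lower without aged replicate 2. On rescaled FPKM it had 6 higher and 0 lower, with a median of 0.30.

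Of 7 genes for transcription regulators of mitochondrial biogenesis 4 were called higher and 0 lower, with a median of 0.40. They include Tfam, at 0.40 ± 0.08 (log2, SE; edgeR adjusted p = 0.0120), which acts on the mitochondrial genome and not on the nuclear fusion and fission genes. Ppargc1a, the coactivator PGC-1 alpha, which is known to raise Mfn2 transcription together with estrogen-related receptors, had 8.84 and 8.46 FPKM at 8 weeks and 18.2 and 19.8 at 12 months. Its log2 fold change was 1.08 ± 0.07 (SE; edgeR adjusted p = 0.0012). Esrrg, an estrogen-related receptor, had 2.19 and 1.95 FPKM at 8 weeks and 6.30 and 5.82 at 12 months, a log2 fold change of 1.49 ± 0.11 (SE; edgeR adjusted p = 0.0012). Esrra, another such receptor, did not pass the test, at 0.17 ± 0.08 (log2, SE; edgeR adjusted p = 0.129). Ppargc1a and Esrrg were the 2 genes still called without young replicate 1 or 2.

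General markers of mitochondrial content moved in both directions, with 6 of 17 called higher, 3 lower and a median of 0.09. Mitochondrially encoded genes, which are not in this list, held 27.1% and 27.3% of counts at 8 weeks and 23.7% and 23.2% at 12 months. Cs, citrate synthase, rose by 0.53 ± 0.07 (log2, SE; edgeR adjusted p = 0.0035), which was less than Mfn2 and Opa1 and more than Mfn1 and Dnm1l by the point estimates; these differences were not tested. Its adjusted p was 0.0525 without young replicate 2. Pdha1, a subunit of pyruvate dehydrogenase, rose by 0.91 ± 0.07 (log2, SE; edgeR adjusted p = 0.0012). Cox4i1, a subunit of cytochrome c oxidase, was lower at -0.70 ± 0.10 (log2, SE; edgeR adjusted p = 0.0039). With a longest transcript of 765 nt, Cox4i1 was in the shortest length class, and over the settings its log2 fold change ran from -0.79 to -0.49. The list had 5 genes higher and 1 lower without young replicate 1, and its median was -0.01 without aged replicate 1. On rescaled FPKM it had 9 higher and 1 lower, with a median of 0.27.

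**Figure D5:**
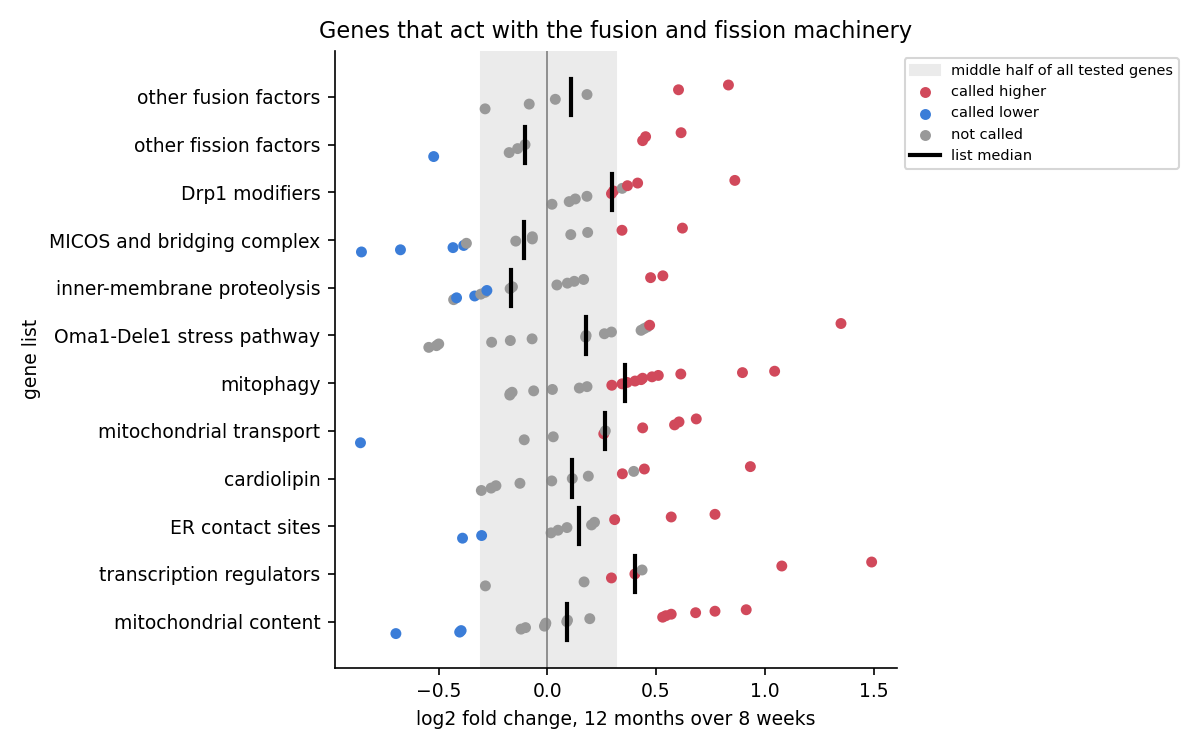
Log2 fold change, 12 months over 8 weeks (horizontal axis), of the tested genes in 12 lists around the fusion and fission machinery (vertical axis). Points are genes, coloured by call, black bars are list medians and the grey band spans the quartiles of all tested genes, -0.31 to 0.32. The medians run from -0.17 for inner membrane proteolysis to 0.40 for the transcription regulators.

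Marker levels of other cell types stand beside these results. Their counts are to be read against 20.1% called higher and 17.5% called lower over all tested genes. The aged libraries differed from each other in atrial muscle markers, 4400 against 1674 summed FPKM with all 6 called higher, and in B cell markers, 1.14 against 19.2. Between the same libraries the 10 genes differed by at most 1.20-fold. That comparison does not cover marker shifts that both aged libraries share. The part of any marker shift in the changes of the 10 genes was not tested. Of the 10 cardiomyocyte markers 3 were called higher and 5 lower, with summed FPKM of 19450 and 19350 at 8 weeks and 17430 and 17490 at 12 months. All 8 endothelial markers were called lower, with a median of -1.13. Of 7 tested fat cell markers 5 were called higher and 1 lower, with summed FPKM of 158, 184, 189 and 164 in young replicates 1 and 2 and aged replicates 1 and 2. Most of that sum is Fabp4, the gene called lower, which endothelial cells also express; without it the sum was 18.2, 16.6, 105 and 69.6. Ucp1, the brown fat uncoupling protein, was at 0.704 and 0.290 FPKM at 8 weeks and 55.2 and 10.2 at 12 months. Smooth muscle and pericyte markers were lower in 4 of 7 and higher in 1, and fibroblast markers higher in 1 of 6. Neither of these counts of higher exceeded the share over all tested genes. Macrophage markers were higher in 2 of 5, mesothelial markers in 3 of 4 and erythroid markers in 4 of 4. The macrophage median log2 fold change was 0.44, but 0.60 without young replicate 1 and 0.27 without young replicate 2. A mean of at least 1 FPKM at 8 weeks was reached by 2 of the 7 tested fat cell, 1 of the 4 mesothelial and 5 of the 6 atrial markers. The others passed the expression filter only through the aged libraries, which favoured a call of higher. They include all fat cell and mesothelial markers called higher. Of 6 skeletal muscle markers 2 passed the expression filter. Mylpf, a fast myosin light chain, was called lower, at 2.37 and 2.18 FPKM at 8 weeks and 0.790 and 0.910 at 12 months, and Tnnt3 was not called, at 1.37 to 2.34 FPKM. Actn3 and the myosins Myh1, Myh2 and Myh4 lay below 1 FPKM in every library.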

How the data were processed

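Poly(A) RNA from 4 whole heart libraries was sequenced in pairs from strand-specific libraries, per the labels' protocols. The submitters' processing notes name cutadapt 1.9, HISAT2 2.2.1, StringTie 2.1.6, DESeq2, edgeR and build GRCm38. How strand and reads with several positions were treated is not given in the sources used here. Per the file headers, the deposited table gives FPKM and expected counts (already whole numbers) per gene. The FPKM values made by the authors use the merged exon length: for 98.4% of tested genes the length implied by count and FPKM lay within 5% of it after scaling. Unmapped sample columns numbered 0.

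Genes with a mean FPKM of at least 1 were tested with edgeR 4.0.16 in R 4.3.3 (quasi-likelihood, TMM, intercept and age, two-sided, Benjamini-Hochberg adjustment over 12027 genes, threshold 0.05). Log2 fold changes carry an SE, FPKM values an SD, and folds of ratios a value combined from the SDs of both ages. Ratios and sums have no test. Totals of 51328364 to 63828074 counts set a floor of 3 counts, 0.047 to 0.0584 CPM; counting error only is covered. Alternatives used other filters, scalings, DESeq2 1.42.0, limma 3.58.1 on log2(FPKM + 1), length or GC trends (mgcv 1.9.3), the threshold 0.01 and leaving out each library. A trend on merged exon length, counts per longest transcript and ratios without single genes were added after seeing the data. The fit was tested on simulated data.

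The 10 genes and all lists were chosen with earlier results of these data known. Named genes are the 10 members, from each list up to 4 tested genes with the smallest p or called against most of their list, the 3 nearest patterns of Mfn2, Opa1 and Fis1, and defining markers of cell types. The lists share some genes. Htra2, Dele1, Atf4 and Esrra, and the choice of Myh6, Ucp1 and Fabp4 among the markers, fall outside that rule and were named after their values were seen. Transcript lengths, found for 99.94% of tested genes, came from the GENCODE M21 annotation, and promoters from RefSeq. Figures were drawn with matplotlib 3.10.9 in Python 3.11.15.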

Additional observations from a re-analysis of the deposited data

How the results depend on the processing

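Of 169 recomputed log2 fold changes of the 10 genes, 152 kept their direction and side of the threshold, 9 kept their direction but lost the call, and 8 changed sign. The sign changes were in Mief1 (-0.014 with the length trend, -0.0091 with the GC trend and -0.013 with the merged exon length trend removed, and -0.033 to 0.140 without 1 library) and Mief2 (0.10 on rescaled FPKM, 0.016 with the GC trend removed, and -0.217 to 0.062 without 1 library, above 0 without young replicate 1 or aged replicate 2). Genes called, 4520 in all, numbered 2990 with a mean FPKM of at least 5, of which 1469 were higher, from fewer genes tested. On rescaled FPKM 3797 were higher and 1095 lower; the cause was not tested. At an adjusted p below 0.01 there were 2272 called, 1254 higher and 1018 lower, and 3 of the 10 genes were called higher. Without 1 library the totals ranged from 2077 to 4658, with 1187 to 2514 higher and 890 to 2144 lower, and the 10 genes gave 2 to 6 higher and 0 to 1 lower. Mief1 has no value with a mean FPKM of at least 5. The fold of the fusion to fission ratio, 1.73, was 1.67 without Mfn2 and Dnm1l (the most abundant over the 4 libraries) and 1.14 without Mfn2 and Fis1 (the most abundant at 8 weeks). Without single genes it was 1.98 (Mfn1), 1.39 (Mfn2), 2.07 (Dnm1l) and 1.41 (Fis1). The fold of the inner to outer ratio, 1.02, was 1.28 with geometric means, 1.08 with counts per longest transcript, 1.15 without Opa1 and Mfn2 and 1.67 without Oma1 and Mfn2. Without single genes it was below 1 for Opa1 (0.814), Mfn1 (0.968) and Fis1 (0.917) and above 1 for Oma1 (1.19), Yme1l1 (1.06), Mfn2 (1.44) and Mief2 (1.01). No paired analysis was possible because the labels give no replicate numbers that the ages share, apart from a single 5 in the titles. With 2 libraries an age, 5 of the 7 calls among the 10 genes were lost without 1 or the other young library.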
